A study of Mus musculus with 31 samples.

Results

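The nuclear genes of the mitochondrial respiratory chain were followed across normal thymus and ENU-induced thymic tumors of mice with 3 NDR1 genotypes. Members were taken by symbol, from those that begin with Nduf, Sdha, Sdhb, Sdhc, Sdhd, Uqcr, Cox4, Cox5, Cox6, Cox7, Cox8 or Atp5. Each gene was read from the single-gene probe set of highest mean signal. This gave 94 of the 18193 genes that a single-gene probe set named. Of the 94, 89 had a mean signal above the 25th percentile of single-gene probe sets and were among the 14016 genes tested. The 5 below it were Ndufb4 and 4 tissue-restricted forms, Ndufa4l2, Cox7b2, Cox8b and Cox8c. The 89 comprised 72 subunits of complexes I to V (33, 4, 8, 10 and 17 genes in turn), 8 genes named as complex I assembly factors, 4 named as complex II assembly factors, 4 tissue isoforms of complex IV and Cox7a2l, which takes part in joining complexes into supercomplexes.

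The series holds 31 arrays, 1 per sample, of C57BL/6 mice. Untreated thymus came from mice labelled NDR1+/+ (WT), NDR1+/- (HT) and NDR1-/- (KO), with 2 female and 2 male samples each. Tumors of the thymus came from mice given N-ethyl-N-nitrosourea (ENU, an alkylating mutagen) at 100 mg/kg, and were taken when a tumor developed or at 9 months. They numbered 5 WT (all female), 7 HT (1 male, tumor 04) and 7 KO (1 male, tumor 02). NDR1 is a protein kinase encoded by Stk38. The labels give no age for the thymi, no ENU-treated tissue without tumor and no processing date, so ENU and tumor cannot be told apart. Sample titles name thymocytes and tumor cells, and the tissue label names thymus. The labels do not say that samples came from separate animals, so p-values measure the spread between these samples, which may be technical.

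The respiratory chain sits in the inner mitochondrial membrane. Complexes I and II pass electrons from NADH and succinate to ubiquinone, complex III passes them on to cytochrome c, and complex IV reduces oxygen. Complexes I, III and IV pump protons, and complex V, the ATP synthase, uses the resulting gradient to make ATP. Most subunits are encoded in the nucleus and a small set in mitochondrial DNA. Nuclear respiratory factor 1 (NRF1), the ETS-family factor GABP and YY1 are known to bind the promoters of many of the nuclear genes. Several complex IV subunits exist in a common form and in a form restricted to muscle, lung or testis. T cells are known to raise respiration when activated.

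RefSeq promoter windows (GRCm38.p6, from 250 bases before to 50 after a start) were given for 78 of the 94 genes. The NRF1 motif, whose letters are the capitals in the sequences below, was searched on both strands with any base at its single free position. It occurred in 24.4% of these genes, against 5.19% of 27025 genes with a window and 7.17% of the 17492 protein-coding ones. The YY1 motif AAGATGGCG, also on both strands, occurred in 8.97%, against 1.64% and 2.14%. The ETS motif CCGGAAGT occurred in 6.41%, against 4.31% and 5.69%, and the E-box CACGTG in 7.69%, against 8.09% and 8.91%. None of these motifs was found in the windows of the 4 tissue-restricted genes that had one. At the shares above, 4 genes are too few to set them apart from the other members or from all genes. The 250 bases before the start are printed below for 3 common genes with an NRF1 match and for 2 tissue-restricted genes without one, because the values of these genes are described below. They were picked after their values were seen. The genes are Sdha, the flavoprotein of complex II; Cox6a1, the common form of a complex IV subunit; Ndufaf4, a complex I assembly factor; Cox7a1, the heart and muscle form of a complex IV subunit; and Cox6b2, the testis form of another. Sequences run 5′ to 3′ on the gene's strand, and capitals mark the NRF1 matches, 3 in Sdha, 2 in Cox6a1 and 1 in Ndufaf4. A match describes the letters and does not show binding.
Sdha, chr13:74350241-74350490, minus strand: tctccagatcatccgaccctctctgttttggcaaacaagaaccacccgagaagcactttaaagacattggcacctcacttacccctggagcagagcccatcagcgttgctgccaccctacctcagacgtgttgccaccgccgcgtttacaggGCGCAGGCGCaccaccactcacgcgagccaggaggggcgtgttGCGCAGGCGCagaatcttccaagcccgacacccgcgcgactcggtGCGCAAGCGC
Cox6a1, chr5:115348959-115349208, minus strand: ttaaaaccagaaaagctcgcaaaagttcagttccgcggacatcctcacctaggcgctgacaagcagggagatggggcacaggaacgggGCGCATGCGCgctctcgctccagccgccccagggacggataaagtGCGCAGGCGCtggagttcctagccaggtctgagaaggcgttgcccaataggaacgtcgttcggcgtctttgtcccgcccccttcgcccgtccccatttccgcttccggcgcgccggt
Ndufaf4, chr4:24897833-24898082, plus strand: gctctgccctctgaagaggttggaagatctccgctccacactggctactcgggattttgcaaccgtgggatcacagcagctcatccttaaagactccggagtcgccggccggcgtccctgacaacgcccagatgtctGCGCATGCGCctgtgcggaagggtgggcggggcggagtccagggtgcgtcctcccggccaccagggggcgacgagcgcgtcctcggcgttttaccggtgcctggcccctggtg
Cox7a1, chr7:30183921-30184170, plus strand: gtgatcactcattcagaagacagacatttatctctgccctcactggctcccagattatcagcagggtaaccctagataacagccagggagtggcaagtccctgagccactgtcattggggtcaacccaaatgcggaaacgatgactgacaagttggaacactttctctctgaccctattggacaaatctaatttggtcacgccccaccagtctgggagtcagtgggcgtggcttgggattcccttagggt
Cox6b2, chr7:4753095-4753344, minus strand: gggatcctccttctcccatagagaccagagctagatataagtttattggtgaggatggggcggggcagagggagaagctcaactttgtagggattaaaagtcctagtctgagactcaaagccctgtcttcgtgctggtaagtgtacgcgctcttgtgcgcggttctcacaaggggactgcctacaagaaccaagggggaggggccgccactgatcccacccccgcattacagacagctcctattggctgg

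Values below are log2(intensity + 1), and differences are on that scale. Every array had a median of 4.39 on this scale. The mean over 15 T cell and thymocyte markers was 12.88 to 13.01 in the thymi and 9.84 to 12.17 in the tumors. In tumors, T cell markers were lower (11 of 15 called), thymic epithelium markers lower (5 of 9), fibroblast markers higher (5 of 9) and macrophage markers higher (2 of 9). Over all genes tested, 11.6% were called higher and 12.6% lower in tumors. As a sign of RNA quality, the array's actin and Gapdh controls give a 3′/5′ signal ratio (log2). It was 0.261 to 0.499 in thymi and 0.185 to 4.87 in tumors, with 15 of 19 tumors above the highest thymus. B cell markers averaged 11.09 to 12.70 in HT tumors 01 and 03 and KO tumors 04 and 06, and at most 9.95 in the other 15. In bulk RNA, fewer cells of a type and less RNA per cell cannot be told apart.

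Across all 5 complexes the thymus arrays lay close together, and the tumors spread widely, mostly downward. The mean over the 72 subunits was 12.21 to 12.47 in the 12 thymi (median 12.36), with 12.34 ± 0.101 (SD, n = 4) in WT, 12.38 ± 0.0573 in HT and 12.29 ± 0.0820 in KO. In tumors it was 11.31 to 12.56 (median 12.18), with 12.16 ± 0.195 (n = 5) in WT, 12.11 ± 0.311 (n = 7) in HT and 11.92 ± 0.505 (n = 7) in KO. The 2 ranges overlapped, with 11 of 19 tumors below the lowest thymus. The SD within groups of the median subunit was 0.119 in thymus and 0.538 in tumors. For 1727 genes above the subunits' 10th percentile of signal it was 0.117 and 0.501, so the wider spread of the tumors was shared by other strongly expressed genes.

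**Figure D1:**
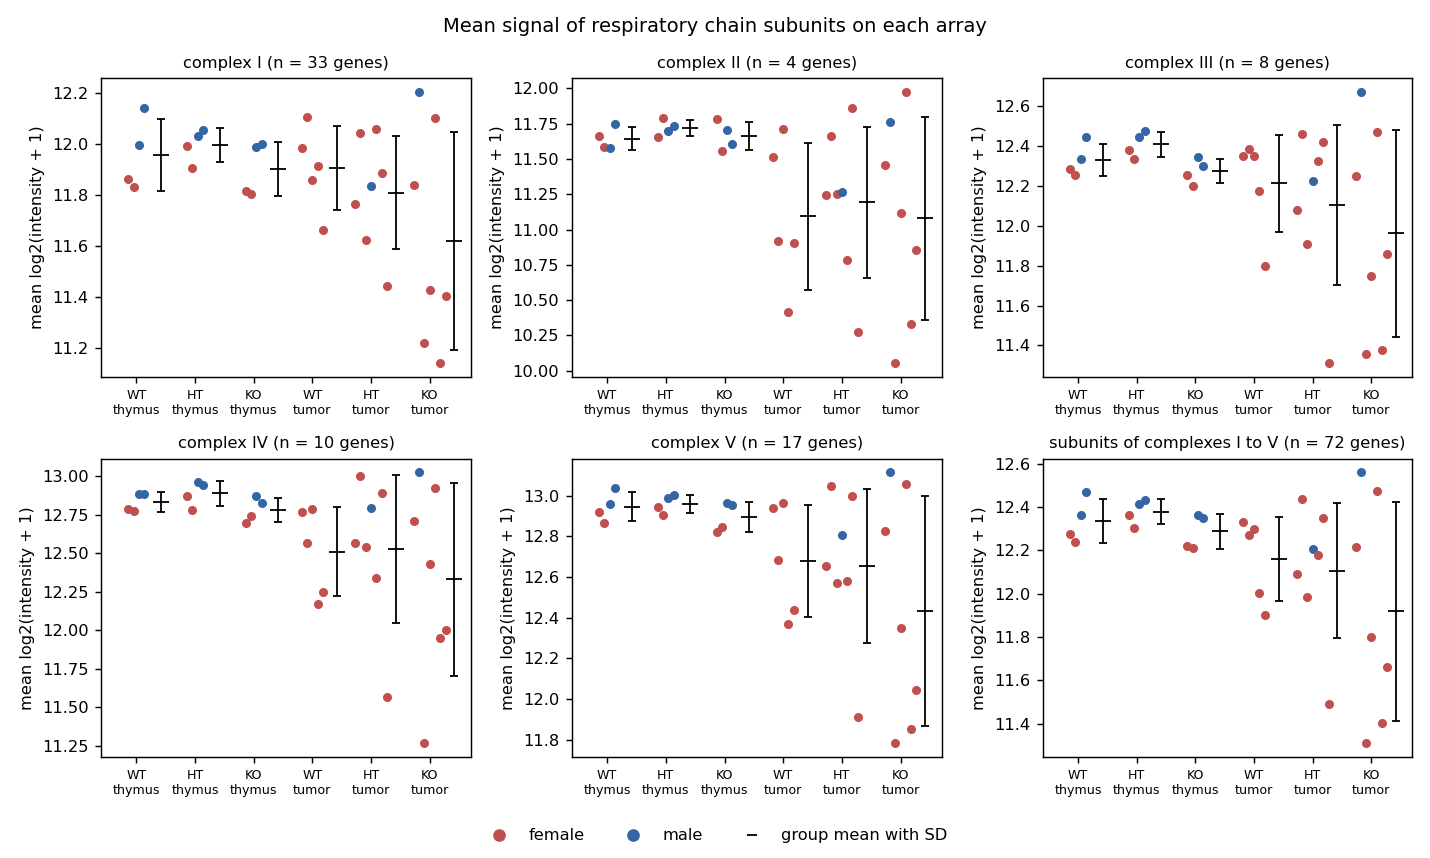
Mean log2(intensity + 1) over the subunits of each complex, and over all 72 subunits, on each array (points, coloured by sex) with the group mean and SD beside them. The thymi lie close together in every panel, and the mean over 72 subunits falls to 11.31 in 1 KO tumor.

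The comparison of tumors with thymus asks which members differ between ENU tumors and untreated tissue. Few did. In limma, averaged over genotypes and with sex as a covariate, 4 of 89 members were higher and 9 lower in tumors at adjusted p under 0.05. Over all genes tested 24.2% were called, 11.6% higher and 12.6% lower, so the members' 4.49% and 10.1% were not above the background in this fit. Both were also below the 12.2% higher and 19.1% lower of the 1727 genes above the subunits' 10th percentile of signal. The median difference was -0.16 over the 72 subunits, 0.05 over all genes and -0.10 over the 1727 genes of like signal. The medians by complex were -0.14 for complex I, -0.51 for II, -0.17 for III, -0.18 for IV and -0.18 for V. These medians read 1 probe set per gene. Of 51 members with over 1 probe set above the filter, 24 had probe sets of opposite sign. In 1 of these both signs reached unadjusted p under 0.05 in limma over all probe sets. The counts of called members moved with the fit, and so did their place against all genes. Shares called among genes of like signal were taken in the main fit only. Without the sex covariate 4 members were higher and 30 lower, the latter 33.7% of members against 18.4% of genes. Arrays were also centred on their median over the genes tested, which moved the median of all genes from 0.05 to -0.07. The counts were then 1 and 21 (23.6% lower against 17%). With a variance for each tissue they were 14 and 33 (37.1% lower against 21.2%), and with array weights 18 and 27 (30.3% lower against 22.7%). In a fit that held the 3′/5′ ratio they were 3 and 3 (3.37% lower against 10%), and the subunit median was 0.0031. Leaving out HT thymus F_01 gave 2 higher and 5 lower, and leaving out KO tumor 02 gave 2 and 15. Only 2 tumors were male, so the sex term comes mostly from the thymi.

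**Figure D2:**
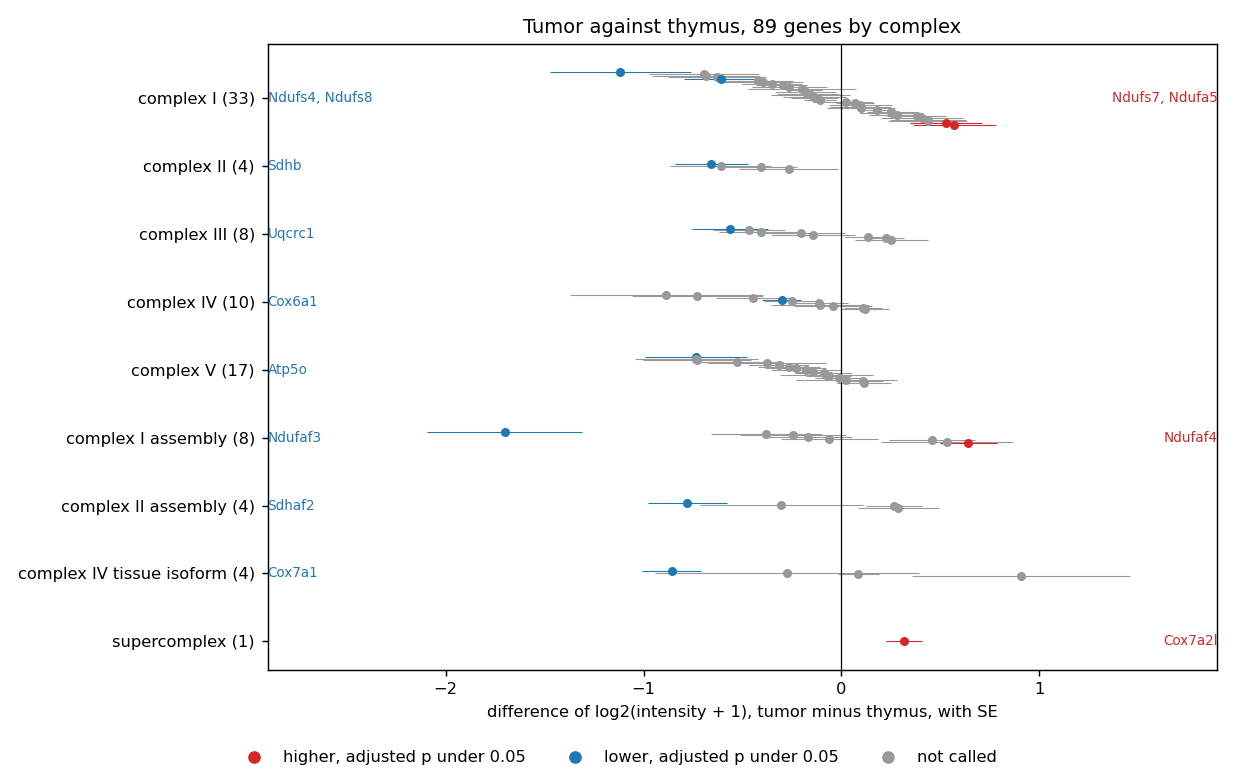
Difference of log2(intensity + 1) between tumor and thymus for each of the 89 genes (points, with SE), by complex and kind, with called genes coloured and named. On their main probe sets 49 of the 72 subunits lie below 0, where the median of all genes tested was 0.05. Ndufaf3, at -1.70, lies farthest from 0.

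Assembly factors of complex I held the largest fall and the largest rise among the called members. Ndufaf3, needed to build complex I, was 9.52 to 10.26 in thymi (median 9.89) and 4.11 to 9.24 in tumors (median 8.26). It was the only member whose 19 tumors all lay below all 12 thymi, a separation that 1.82% of genes showed in that direction. No member had all tumors above all thymi, against 0.87% of genes. It fell by 1.70 (SE 0.392, adjusted p = 0.00243), or 3.25-fold, and was called in all 13 other settings of the fit. KO tumor 03 had the value of 4.11, and without the 7 tumors of 3′/5′ ratio above 1.5 the difference was -1.24 (adjusted p = 9.35e-06). Ndufaf3 had 1 probe set.

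Ndufaf4, which works with Ndufaf3 in the same assembly step, went the other way. It was 9.80 to 10.35 in thymi (median 10.05) and 9.92 to 11.53 in tumors (median 10.72). Tumors and thymi overlapped, but 17 of 19 tumors were above every thymus. The rise was 0.64 (SE 0.146, adjusted p = 0.00214), and its other probe set rose by 0.82 (unadjusted p = 4.17e-05 in limma over all probe sets). The largest Ndufaf4 value was in KO tumor 03, the array of lowest Ndufaf3. Of the other complex I assembly genes, Ndufaf1, Ndufaf2, Ndufaf5, Ndufaf6, Ndufaf7 and Ndufaf8 differed by -0.38 to 0.53 and none was called.

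Among complex I subunits, Ndufs4 and Ndufs8 fell and Ndufs7 and Ndufa5 rose. Ndufs4, an accessory subunit, was 11.08 to 11.75 in thymi and 7.80 to 11.29 in tumors. It fell by 1.12 (SE 0.357, adjusted p = 0.0236), and all 4 of its probe sets were lower, by 0.21 to 1.12. Without the 7 tumors of high 3′/5′ ratio it fell by 0.57 (adjusted p = 0.00325), and without HT thymus F_01 it was not called. Ndufs8, a core iron-sulfur subunit, was 12.99 to 13.33 in thymi and 11.27 to 13.32 in tumors. It fell by 0.61 (adjusted p = 0.0181), and its other 5 probe sets were also lower, by 0.15 to 0.91.

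The rises of complex I subunits depended more on single arrays. Ndufs7, another core subunit, was 11.96 to 12.25 in thymi and 11.75 to 13.60 in tumors, a rise of 0.57 (adjusted p = 0.0493). Its other probe set differed by -0.17 and 21 of 31 fits without a single array lost the call. Ndufa5, an accessory subunit, was 11.81 to 12.37 in thymi and 11.50 to 13.55 in tumors. The rise was 0.53 (adjusted p = 0.0346), and 9 of those fits lost the call. The other Ndufa5 probe set differed by 0.07 (unadjusted p = 0.704 in limma over all probe sets). The core subunits Ndufs1 (-0.19, adjusted p = 0.127) and Ndufv1 (0.41, adjusted p = 0.152) were not called.

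Complex II had the lowest median of the 5 complexes, and all 4 of its subunits were lower in tumors on their main probe sets. Sdhb, its iron-sulfur subunit, was called. It was 12.38 to 12.69 in thymi (median 12.51) and 10.62 to 12.54 in tumors (median 11.94), and 17 of 19 tumors were below every thymus. The fall was 0.66 (SE 0.186, adjusted p = 0.0111). No fit without a single array lost it, and 1 of 13 other settings did (limma adjusted p = 0.0659). Sdha (-0.41), Sdhc (-0.61) and Sdhd (-0.27) were not called, with adjusted p of 0.107, 0.0805 and 0.456. The probe sets of Sdha disagreed, with 1 further set at 0.17 (unadjusted p = 0.160 in limma over all probe sets) and another at -0.89 (unadjusted p = 0.0197). The other Sdhd probe set was at 0.47 (unadjusted p = 0.00820), so the direction of both genes is uncertain.

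Sdhaf2, which helps to attach FAD to Sdha, was 9.98 to 10.36 in thymi and 8.28 to 10.25 in tumors. It fell by 0.78 (SE 0.199, adjusted p = 0.00554), and it was the only member called within WT alone, where 1.12% of members against 6.56% of genes passed. In WT the fall was 1.15 (adjusted p = 0.0408), and 15 of 31 fits without a single array lost it. A second Sdhaf2 probe set differed by 0.07, so the fall is uncertain. Sdhaf1, Sdhaf3 and Sdhaf4, which also serve complex II assembly, differed by 0.27, 0.29 and -0.30 and were not called.

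In complexes III, IV and V, 1 subunit each was called, all lower. Uqcrc1, a core protein of complex III, was 11.25 to 11.92 in thymi and 10.17 to 11.66 in tumors. It fell by 0.56 (adjusted p = 0.0327). Uqcrc2, its partner, differed by 0.13 (adjusted p = 0.412) and the Rieske protein gene Uqcrfs1 by -0.41 (adjusted p = 0.155). The other Uqcrc2 probe set was at -0.43 (unadjusted p = 0.0405 in limma over all probe sets). That leaves the direction of Uqcrc2 uncertain. Cox6a1 was 14.35 to 14.56 in thymi and 13.40 to 14.58 in tumors, a fall of 0.30 (adjusted p = 0.0288) that was 0.70 on its other probe set. Atp5o, a peripheral stalk subunit of the ATP synthase, was 12.33 to 12.64 in thymi and 10.25 to 12.49 in tumors, a fall of 0.74 (adjusted p = 0.0376). Its second probe set differed by -0.09. Without a single array, 8 of 31 fits lost Uqcrc1, 6 lost Cox6a1 and 10 lost Atp5o.

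The other subunits of complexes IV and V were not called. Cox4i1, Cox5a and Cox5b differed by -0.25, -0.12 and 0.12 (adjusted p = 0.188, 0.598 and 0.501). Atp5b, the catalytic beta subunit of the ATP synthase, differed by -0.73 (SE 0.274, adjusted p = 0.0531), and Atp5a1, the alpha subunit, by -0.14 (adjusted p = 0.289). A further Atp5a1 probe set was at -0.71 (unadjusted p = 0.00897 in limma over all probe sets). The last was at 0.41 (unadjusted p = 0.0753), so the direction of Atp5a1 is uncertain. The 3 genes of the same c subunit of the proton ring, Atp5g1, Atp5g2 and Atp5g3, differed by -0.38, 0.02 and -0.23. The sign of Atp5g2, Cox5a and Cox5b turned in some settings.

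Cox7a2l, a factor of supercomplexes that hold complexes III and IV, rose slightly and evenly. It was 12.09 to 12.57 in thymi (median 12.38) and 12.34 to 13.00 in tumors (median 12.61), with overlapping ranges. The rise was 0.32 (SE 0.0918, adjusted p = 0.0137), and 3 of 13 other settings lost the call. Of its other probe sets, 1 rose by 0.31 and 1 differed by 0.03. Its SD within tumor groups was 0.199, among the smallest of the members with Ndufb11 (0.187) and Ndufb10 (0.191), against 1.54 for Cox7c.

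The tissue isoforms of complex IV set the widest contrasts between single tumors. Cox7a1 was the most firmly called of all members. It was 4.70 to 5.65 in thymi (median 5.16) and 3.32 to 5.13 in tumors (median 4.04), both near the array's median signal, and KO tumor 02, a male sample, was the only tumor above the lowest thymus. The tumor values reached below the filter on low signal (3.61), so no fold is given. The fall on the log2 scale was 0.86 (SE 0.151, adjusted p = 0.000164), and it was called in all 12 other settings that could test it and in all 31 fits without a single array. Within HT it fell by 0.95 (adjusted p = 0.0206) and was the only member called, 1.12% against 3.5% of all genes. Within KO it fell by 0.89 (adjusted p = 0.0252) and Ndufaf3 by 2.06 (adjusted p = 0.0493), 2.25% of members against 4.76% of genes. The call of Ndufaf3 within KO was lost in 24 of 31 fits without a single array. Cox7a2, the common form, differed by -0.45 (adjusted p = 0.0863).

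Cox6a2, the heart and muscle form, was low in every thymus, at 3.78 to 4.66, and in most tumors. It was high in WT tumor 02 (8.77), HT tumor 05 (9.00) and KO tumor 05 (7.35), and intermediate in KO tumor 02 (5.96) and HT tumor 07 (5.22). The average difference of 0.91 was not called (SE 0.550, adjusted p = 0.237). The mean of 20 striated muscle markers on the first 3 of these arrays was 4.11, 4.31 and 3.93, against 3.82 to 4.02 in thymi. The highest mean of those markers, 4.55, was in HT tumor 07. Of 12 muscle markers above the filter, Ryr1 was higher and Mylpf lower in tumors, against 11.6% and 12.6% of all genes. The part of muscle RNA in the Cox6a2 values was not tested further, and they rest on 1 probe set, since the other lay below the filter.

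Cox6b2, the testis form, had a clear signal in every thymus, at 7.80 to 8.64, and split the tumors. It was 8.02 to 10.15 in 13 tumors and below every thymus in 6. These were WT tumor 02 (3.65), HT tumors 01 (5.72), 03 (6.25) and 05 (6.47), and KO tumors 04 (3.85) and 06 (5.19). They include all 4 tumors of high B cell markers and the 2 tumors of highest Cox6a2. The average difference was -0.28 (SE 0.667, adjusted p = 0.792), it was 0.23 without the 4 tumors of high B cell markers, and 0.05 without WT tumor 02. The part of B cell RNA in this pattern was not tested. The common form Cox6b1 differed by 0.11 (adjusted p = 0.430), with sign turning between settings.

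The remaining tissue isoforms stayed near the lowest signals of the array. Cox4i2, the lung form, was 3.33 to 4.57 over all 31 arrays and differed by 0.09 between tumor and thymus (adjusted p = 0.574). Cox7b2, Cox8b, Cox8c and Ndufa4l2 had means of 3.19 to 3.57 in both tissues and were not tested. Ndufa4, the common form of Ndufa4l2 and now assigned to complex IV, differed by -0.73 (adjusted p = 0.109), and Cox8a by -0.11 (adjusted p = 0.780). Ndufb4 also lay below the filter, and its strongest probe sets name several genes.

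**Figure D3:**
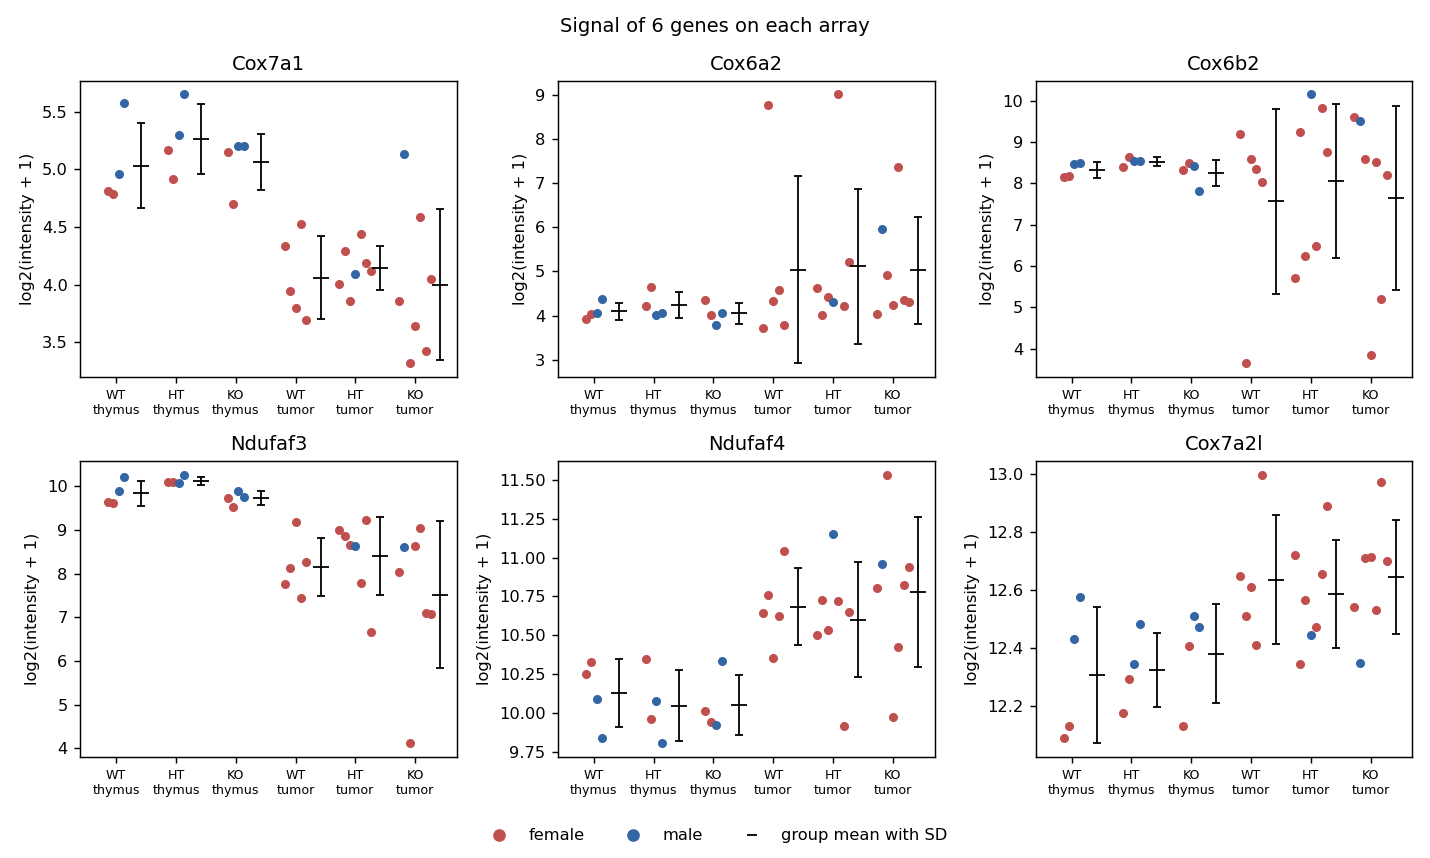
Log2(intensity + 1) of 6 genes on each array (points, coloured by sex) with the group mean and SD beside them. Ndufaf3 is lower in every tumor than in every thymus, Cox6a2 is high in 3 tumors, and Cox6b2 is low in 6.

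Single tumors differed far more than the group averages. The median over 72 subunits of the difference from the thymus mean was -1.11 in KO tumor 03, -0.97 in HT tumor 07, -0.85 in KO tumor 06, -0.67 in KO tumor 07, -0.47 in WT tumor 05 and -0.45 in KO tumor 04. In KO tumor 03, 60 of 72 subunits (83.3%) lay below the lowest thymus, and in KO tumor 06 it was 62 (86.1%). Among 1662 other genes of like signal the shares were 52.9% and 50.5%. At the other end, KO tumor 02 had 32 subunits (44.4%) above the highest thymus and KO tumor 05 had 30 (41.7%), against 32.4% and 29.3% of the other genes.

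The low tumors were low in every complex, though not equally. In KO tumor 03 the medians were -0.64 for complex I, -1.60 for II, -1.12 for III, -1.16 for IV and -1.18 for V. HT tumor 07 had -0.63, -1.28, -1.45, -1.15 and -0.99 in the same order, and KO tumor 06 had -0.79, -1.32, -1.22, -0.56 and -1.04. The 4 tumors of lowest median had 3′/5′ ratios of 1.91, 4.87, 2.05 and 3.17, above every thymus. High ratios also occurred without a low median, as in HT tumor 05 (ratio 2.06, median -0.09) and WT tumor 02 (ratio 1.52, median 0.04). KO tumor 06 and KO tumor 04 were among the tumors of high B cell markers. Which of these features the low subunit signal belongs to was not tested.

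**Figure D4:**
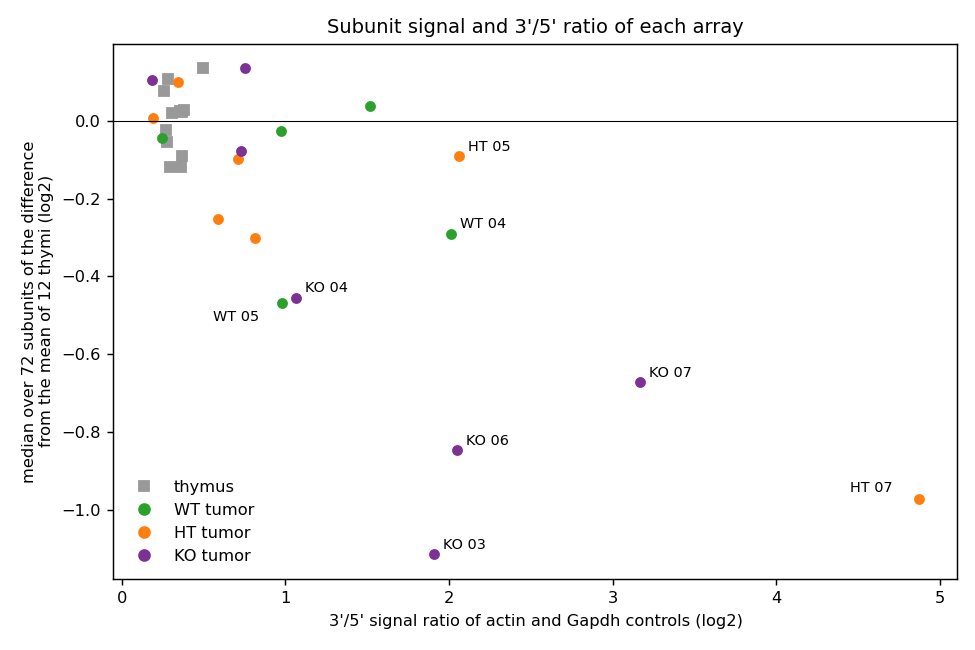
For each array, the median over 72 subunits of the difference from the mean of the 12 thymi, against the log2 3′/5′ signal ratio of the actin and Gapdh controls. The 4 tumors of lowest median (-1.11 to -0.67) have ratios of 1.91 to 4.87, and HT tumor 05 has a ratio of 2.06 with a median of -0.09.

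In the main fits the members were called more often by sex than in any other contrast. With arrays centred on their median, array weights or a variance for each tissue, tumor against thymus called more of them (22, 45 and 47) than sex did in its own fits (19, 42 and 38 in turn, the last the main fit). In the thymus fit, 37 of 89 members were higher in males and 1 was lower at adjusted p under 0.05. Over all genes 25.9% were called, 15.2% higher and 10.7% lower in males, against 41.6% and 1.12% of members. With the filter at the 50th percentile, which leaves genes of stronger signal, 22.8% of genes and 48.8% of members were higher. Genes of like signal were not taken as a background for sex, here or below. The differences were small, with a median of 0.13 over the 72 subunits and 0.04 over all genes. The mean over the 72 subunits was 12.21 to 12.36 in 6 females (12.27 ± 0.0578, SD) and 12.35 to 12.47 in 6 males (12.40 ± 0.0466), with ranges that overlapped at their edges. With arrays centred on their median, 14 members were higher and 5 lower, 15.7% and 5.62% against 8.66% and 16.4% of genes. With quantile normalization 34 were higher and 1 lower, 38.2% and 1.12% against 12.2% and 12.8%. The counts and the balance over all genes thus depended on the scaling. In both scalings, members exceeded all genes in the share higher and lay below them in the share lower.

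Called rises occurred in complexes I, III, IV and V and among the assembly factors. They numbered 15 of 33 subunits of complex I, 0 of 4 of II, 4 of 8 of III, 5 of 10 of IV, 4 of 17 of V, 4 of 8 complex I assembly genes and 3 of 4 complex II assembly genes. Over all genes 15.2% were called higher, so 4 subunits are too few to set complex II apart. Cox7a1 and Cox7a2l made up the rest of the called rises. In 57 members (64.0%) the male mean was above the female mean within each of WT, HT and KO, against 33.0% of all genes. In 17 members all 6 males were above all 6 females, 19.1% against 7.58% of all genes. The median subunit difference was 0.15 in WT, 0.09 in HT and 0.14 in KO.

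**Figure D5:**
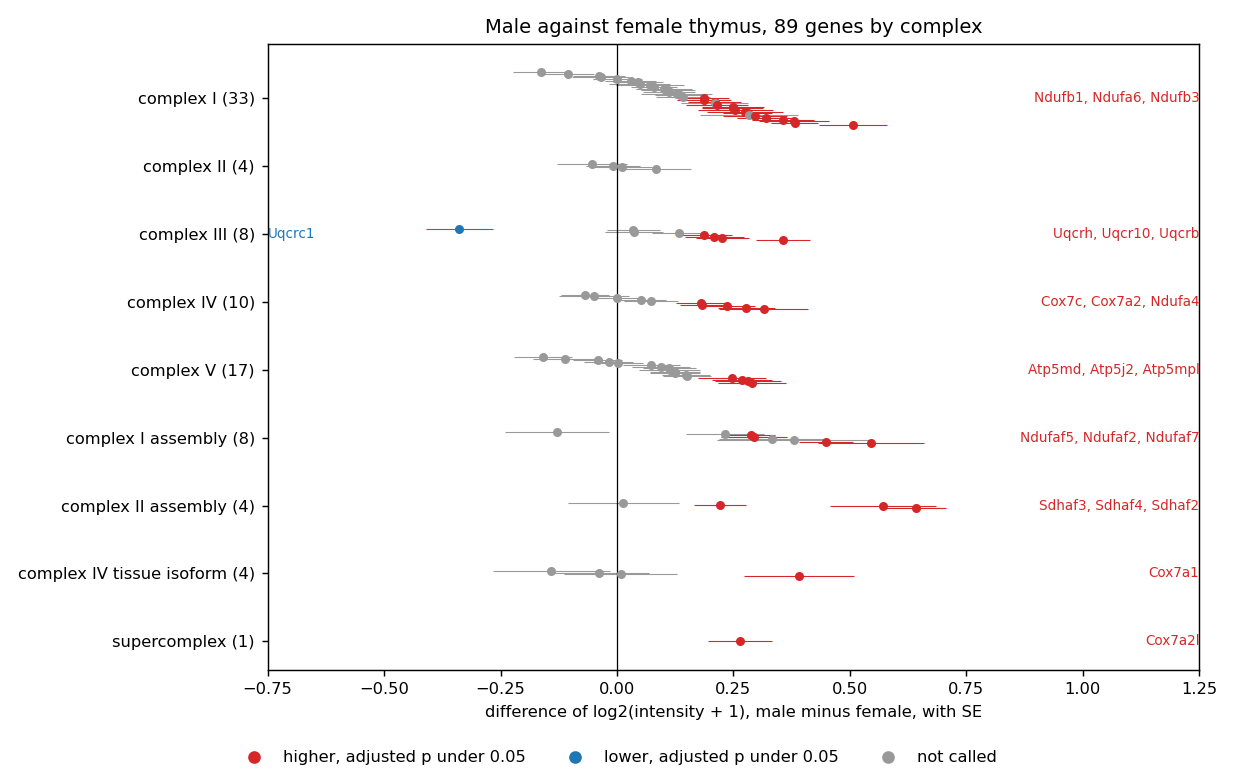
Difference of log2(intensity + 1) between male and female thymus for each of the 89 genes (points, with SE), by complex and kind, with called genes coloured and up to 3 per row named. Uqcrc1 is the single gene called lower, and the 4 complex II subunits lie near 0.

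Sdhaf3, a complex II assembly factor, had the largest rise. It was 7.86 to 8.20 in females (median 7.96) and 8.42 to 8.78 in males (median 8.65), with no overlap. The rise was 0.64 (SE 0.0636, adjusted p = 0.000102), and it was 0.70 in WT, 0.61 in HT and 0.62 in KO. Sdhaf4, which acts on the same complex, rose by 0.57 (adjusted p = 0.00439), from 8.60 to 9.21 in females to 9.20 to 9.72 in males. Among complex I genes the largest rises were in the assembly factors Ndufaf5 (0.55) and Ndufaf2 (0.45) and in the subunits Ndufb1 (0.51), Ndufa6 (0.38) and Ndufb3 (0.38), with adjusted p between 0.000517 and 0.00562. Ndufa6 was 11.45 to 11.70 in females and 11.85 to 12.05 in males.

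Cox7a1 was 4.70 to 5.17 in females and 4.96 to 5.65 in males, a rise of 0.39 (adjusted p = 0.0317) that 6 of 12 fits without a single array lost. Uqcrc1 went the other way. It was 11.59 to 11.92 in females and 11.25 to 11.47 in males, with no overlap, and fell by 0.34 (SE 0.0712, adjusted p = 0.00590). Only 5.14% of all genes had all males below all females.

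Markers of other thymic cells moved with sex, where 15.2% of all genes were called higher and 10.7% lower in males. The mean of 10 thymic epithelium markers was 6.12 to 7.44 in females and 4.75 to 5.15 in males, and 7 of 9 tested were called lower. The mean of 9 macrophage markers was 7.0 to 7.52 in females and 5.34 to 6.40 in males, and 8 of 9 were lower. The mean of 9 fibroblast markers was 4.21 to 5.62 and 3.76 to 3.89, and 5 of 9 were lower. The mean of the T cell markers did not separate the sexes, at 12.90 to 12.96 and 12.88 to 13.01, but 4 of 15 were called. Cd3e (-0.25) and Thy1 (-0.18) were lower and Rag2 (0.28) and Trat1 (0.44) higher in males. The part of these cells in the sex difference of the members was not tested.

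Between NDR1 genotypes no member was called in thymus by limma. The comparison of KO with WT gave 0 of 89 (0.186% of all genes), HT with WT 0 (0.0214%) and KO with HT 0 (0.0571%). At unadjusted p under 0.05, limma gave 1 member higher and 1 lower in KO than WT, against 4.99% of all genes in either direction. It gave 7 members higher and 0 lower in HT than WT, against 6.75% of genes (580 higher, 366 lower). In KO it gave 0 higher and 16 lower than in HT, against 8.38% of genes (445 higher, 729 lower). Every other setting of the fit also called 0. The comparisons share samples, so these counts are not separate. The subunit median was -0.05 between KO and WT thymi (61 of 72 negative), 0.04 between HT and WT (22 negative) and -0.10 between KO and HT (64 negative). Over all genes it was -0.0058, 0.01 and -0.02.

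Ndufs5, a complex I subunit, had the smallest p in both comparisons with WT. It was 10.87, 10.89, 11.34 and 11.45 in WT thymi, 11.93, 11.63, 12.02 and 11.62 in HT, and 11.37, 11.48, 11.88 and 11.56 in KO. The WT values were below every HT value, and 1 of them was above the lowest KO value. The share of all genes with such a separation was not taken, and Ndufs5 was picked for its smallest p. HT was 0.66 higher than WT (SE 0.128, adjusted p = 0.400) and KO 0.44 higher (adjusted p = 0.546). Its other probe set was left out because it also names a pseudogene, Ndufs5-ps, whose transcripts may share signal. For KO against HT the smallest p was that of Ndufaf3, with 9.73 ± 0.155 (SD, n = 4) and 10.13 ± 0.0916, a difference of -0.40 (adjusted p = 0.402). For KO against WT the smallest p among negative differences was that of Ndufb10, another complex I subunit, at -0.22 (adjusted p = 0.651). Ndufb10 is among 6 members on chromosome 17, where Stk38 lies. The other 5, Cox7a2l, Ndufa7, Ndufaf7, Ndufv2 and Ndufv3, differed by -0.09 to 0.12.

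Between tumor genotypes no member was called by limma in any of the 3 comparisons, and no gene of the 14016 was (0%). At unadjusted p under 0.05, 2 members were lower in KO than WT, against 3.37% of all genes in either direction (301 higher, 172 lower). For HT against WT and KO against HT 0 members passed, against 2.78% and 1.1% of genes. Every other setting of the fit also called 0. The differences leaned one way. The median over 72 subunits was -0.30 between KO and WT tumors (67 subunits negative), -0.12 between HT and WT (50 negative) and -0.17 between KO and HT (67 negative). Over all genes it was 0.01, -0.01 and 0.03. The SD of the subunit mean in KO tumors, 0.505, exceeded these differences. Mean cell marker levels also varied between the genotypes, with no marker called. The mean of the T cell markers was 10.92 ± 0.767 (SD, n = 7) in KO tumors, 11.48 ± 0.450 (n = 7) in HT and 11.38 ± 0.329 (n = 5) in WT. The mean of 11 B cell markers was 9.03 ± 2.68, 8.13 ± 2.79 and 6.66 ± 1.18 in the same order. Their part in the lower subunit signal of KO tumors was not tested. Of the 6 tumors of lowest subunit median, 4 were KO, 1 HT and 1 WT.

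Uqcr11, a small complex III subunit, and Ndufa5 had the smallest p for KO against WT tumors. Uqcr11 was 11.23 to 12.18 in 5 WT tumors, 10.60 to 11.83 in 7 HT tumors and 10.10 to 11.94 in 7 KO tumors. KO was 0.72 lower than WT (SE 0.324, adjusted p = 0.874), and the ranges overlapped. Ndufa5 was 11.94 to 13.55 in WT and 11.50 to 12.68 in KO tumors, a difference of -0.70 (adjusted p = 0.874). Ndufs8, with -0.46 (adjusted p = 1.0), had the smallest p for KO against HT. The change from thymus to tumor was also compared between genotypes, and 0 members (0% of all genes) were called for HT against WT or KO against WT. At unadjusted p under 0.05 there was 1 negative difference each, Ndufs5, against 1.05% and 0.849% of genes in either direction.

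Other genes of the same pathway were read from lists. Of 38 further assembly factors of the chain, 4 were higher and 6 lower in tumors than thymus, against 11.6% and 12.6% of all genes. Cox20, a complex IV assembly factor, fell by 0.51 (adjusted p = 0.000303), and Higd1a, a small inner membrane protein, rose by 0.57 (adjusted p = 0.00137). The complex I factors Dmac1 and Foxred1 changed by -0.99 (adjusted p = 9.12e-05) and 0.58 (adjusted p = 0.00944). In male thymi 17 of the 38 were higher and 2 lower than in females, against 15.2% and 10.7% of all genes. Among 26 names of mitochondrial DNA-encoded subunits, 1 was measured, ND5, at 0.36 in tumors (adjusted p = 0.0885). None of the 3 genes of cytochrome c and cytochrome c1 was called, with a median of 0.07.

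Regulators of mitochondrial biogenesis differed in both directions, with 3 of 17 higher and 2 lower in tumors. For this list and those below, the shares of all genes in tumors were 11.6% higher and 12.6% lower. In male thymi they were 15.2% higher and 10.7% lower. Ppargc1b and Pprc1, both coactivators of the PGC-1 family, rose by 1.63 (adjusted p = 0.00229) and 0.91 (adjusted p = 0.000116). Gabpb1, a GABP subunit, fell by 0.48 (adjusted p = 0.0132), and Yy1 fell by 0.69 (adjusted p = 0.00902). In male thymi 4 of the 17 were higher, among them Tfam (0.18), and Nrf1 (-0.47), Esrra (-0.75) and Pprc1 (-0.39) were lower. Of 17 genes of the citric acid cycle, Suclg2 rose by 0.996 (adjusted p = 2.71e-06) and Dlst by 0.44 (adjusted p = 0.0498), and none fell. Between the sexes 2 of these were higher and 2 lower in males. Of 47 proteins of the large mitochondrial ribosome subunit, 5 were higher and 5 lower, among them Mrpl52 at 0.83 (adjusted p = 0.000844) and Mrpl43 at -0.56 (adjusted p = 0.00127). In male thymi 19 of the 47 were higher and 0 lower than in females, with a median of 0.14. Of 13 tested genes of mitochondrial transport, 2 were higher and 1 lower in tumors, the latter the ADP/ATP carrier Slc25a5 (-0.79, adjusted p = 0.0179), and in males 2 were higher and 1 lower.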

How the data were processed

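RNA of 31 samples was read on Affymetrix mouse arrays that probe 3′ ends. The deposited intensity values were made by the authors with GCRMA, per the submitters' processing notes, of a version that the sources used here do not give. Of 45101 probe sets, 34957 named a single gene and were used, through GEO's platform annotation. Values were taken as log2(intensity + 1), and a gene was read from its probe set of highest mean. Genes above the 25th percentile of single-gene probe sets (3.61) were tested. The labels' protocol names a whole-transcript labelling kit; its effect was not tested. Tests were two-sided, with limma 3.58.1 in R 4.3.3 and Benjamini-Hochberg adjustment over 14016 genes. Tumor and thymus were fitted over all 6 groups with sex as a covariate, genotypes within each tissue, and the sexes in thymus with genotype. The script was tested on simulated data. The pseudocount, filter, probe set choice, scaling, covariates, weights and samples were varied.

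Called members, a set of core and other common subunits, isoform pairs and the members of largest change or smallest p were named. Members and lists were chosen with earlier results of these data known. All series columns were used. Cox7b was not analysed here, and Ndufa11 and Ndufs6 were left out because their probe sets name several genes.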

Additional observations from a re-analysis of the deposited data

Results flagged for a closer look

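In groups of 4 to 7 arrays, 102 sets of values of members and complexes were searched for an array far from the rest of its group, and 6 were found; chance gives about 1 in 20. The mean over complex V subunits in HT tumor 07 was 11.91, with the nearest HT tumor at 12.57. Cox7a1 in KO thymus F_02 was 4.70, with the nearest KO thymus at 5.15. Cox6a2 was 8.77 in WT tumor 02, with the nearest WT tumor at 4.59, and 9.00 in HT tumor 05, with the nearest HT tumor at 5.22. Cox6b2 in WT tumor 02 was 3.65, with the nearest WT tumor at 8.02. Ndufaf3 in KO tumor 03 was 4.11, with the nearest KO tumor at 7.07.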

How the results depend on the processing

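Ndufaf3 (13 of 13 settings) and Cox7a1 (12 of 12) kept their call in tumors against thymus, and no genotype comparison called a member in any setting. Ndufaf4 and Sdhb each lost theirs in 1 of 13 settings. Ndufs4, Ndufs8, Sdhaf2, Uqcrc1 and Cox6a1 each lost it in 2. Cox7a2l lost it in 3, Atp5o in 4, Ndufa5 in 5 and Ndufs7 in 6. Against 4 higher and 9 lower, tumors had 2 higher with the mean of all probe sets, 1 higher and 21 lower with centred arrays, 30 lower without the sex covariate, 18 and 27 with array weights, 3 lower with the 3′/5′ ratio, 12 higher without the 4 tumors of high B cell markers, 14 and 33 with a variance for each tissue, and 1 and 3 in females only. Females only and the removal of 7 tumors of high 3′/5′ ratio were chosen after seeing the data.

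Within WT (1 called) the count was 0 with the mean of probe sets and in females, 2 centred and without the sex covariate, 28 with weights, 6 with 2 variances and 5 without the 7 tumors. Within HT (1 called) it was 0 at the 50th percentile filter and in females, 5 with weights, 4 with 2 variances and 2 without the 7 tumors. Within KO (2 called) it was 1 without a filter and with the 3′/5′ ratio, 11 with weights, 23 with 2 variances and 0 in females. Between the sexes (37 higher, 1 lower), centring gave 14 and 5, a pseudocount of 16 or the 50th percentile filter 2 lower, and the mean of probe sets 3 lower.

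The sign turned for the subunit median (0.0031), Cox5a (0.13), Cox8a (0.18), Atp5g1 (0.076) and Atp5g3 (0.022) with the 3′/5′ ratio. It turned for Cox5b (-0.0034), Cox4i2 (-0.036), Cox6b1 (-0.013) and Atp5g2 (-0.10) when centred, and for Cox6b1 (-0.12) and Cox8a (0.0040) with the mean of probe sets. Atp5g2 was -0.10 without the sex covariate, -0.057 with 2 variances and -0.13 in females. Cox6b2 was 0.23 without the B cell marker tumors. Without the 7 tumors, Cox5a was 0.033, Cox8a 0.029 and Cox6b2 0.14. The cause of these changes was not tested.

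Leaving out single arrays gave 2 to 7 higher and 5 to 15 lower in tumors, 0 to 2 called within WT, 0 to 2 within HT and 0 to 5 within KO, and 26 to 39 members higher in males. Atp5g2 ranged from -0.15 to 0.10 and Cox6b2 from -0.51 to 0.050, the latter without WT tumor 02. Same-numbered thymi, which share sex, had residual correlations of 0.386 to 0.581 (median 0.517), against a median of 0.433 for same-sex thymi of other numbers, and 11 of 12 correlated best with their own number. With sex removed the medians were -0.024 and -0.21, and 0 of 12 thymi correlated best with their own number. The difference between the same-sex arrays of a genotype correlated over 0.1 between genotypes in 5 of 6 cases and at -0.059 in the other. Same-numbered tumors had -0.566 to 0.565. Since not every pair was over 0.1, the numbers were not taken to pair the samples. With a replicate block, 0 members were called in each genotype comparison.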
